A study of Mus musculus with 20 samples.

Results

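TRAV segments are the variable (V) genes of the T cell receptor (TCR) α chain, and their usage was read here in follicular T cells of mouse spleen. Every name beginning with TRAV was taken from the deposited table of single-cell TCRs, in cells that list exactly 1 TRAV name, and grouped into families by the number that follows TRAV. These cells numbered 30010 of 33833 cells with a TCR, and they carried 90 TRAV names in 20 families. The other 3823 cells list more than 1 TRAV name and were set aside; whether they are doublets or T cells with more than 1 productive α chain was not tested. A clonotype is a pair of CDR3α and CDR3β amino acid sequences, counted once per mouse, which gave 13628 clonotypes. Usage is given as the percentage of a mouse's clonotypes, or of its cells, that carry a name or family.

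The study compared mixed 564Igi bone marrow chimeras (5 mice), in which autoreactive B cells drive disease, with WT chimeras (5 mice), with paired single-cell RNA and TCR libraries from each mouse. All mice were labelled C57BL/6, were irradiated and were analysed at week 10 after irradiation. WT chimeras received congenic bone marrow alone and were immunized with NP-OVA in alum at week 6. The study's methods also describe a later booster of NP-OVA, which the labels do not mention, and whether these mice had it before they were analysed is not given in the sources used here. The 564Igi chimeras received the same marrow mixed with marrow that carries the autoreactive B cell clone 564Igi, a knock-in of both immunoglobulin chains against ribonuclear complexes, and no immunization of them is stated. The labels name the sorted cells CD4+CXCR5+PD1+, and the study's methods add that they were also gated on 1 of the CD45 alleles that tell congenic mice apart (CD45.2+CD45.1-). Which of the donors and recipients carried that allele is not given in the sources used here, so how far the gate separated donor T cells from recipient T cells that survived irradiation cannot be told. Immunization and autoreactive B cells cannot be told apart as sources of a difference between the groups, since each belongs to 1 group.

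A TCR α chain is made in the thymus when 1 TRAV segment is cut and joined to 1 joining segment (TRAJ) of the same locus. The TRAV segment encodes the CDR1 and CDR2 loops and the start of CDR3α, the junction that usually lies over the presented peptide. The locus rearranges repeatedly, from the TRAV and TRAJ segments nearest each other outward, and in C57BL/6 mice its middle has been duplicated, so that many TRAV genes exist as near-identical copies whose names carry a D or an N. Tfh cells help B cells in germinal centers, and Tfr cells, which express Foxp3, restrain that response.

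The 10 mice contributed 1851 to 4217 cells with 1 TRAV name and 813 to 2090 clonotypes each. Of these cells, 18803 matched a cell of the expression table, by library and barcode, and took its cluster name; the share that matched ranged from 33.2% in WT mouse 14 to 76.9% in 564Igi mouse 34. Between-replicate chi-square tests on TRAV family counts differed at p below 0.05 in 19 of 20 pairs of mice of the same group. These tests take each clonotype as a separate draw, although α chains repeat among clonotypes of a mouse, so their p-values can be too low. Mice had only 24 amino acid CDR3 pairs in common, and each mouse was counted as 1 replicate. The cluster called Tfr had Foxp3 detected in 56.0% of cells, as a mean of 10 mice, and the Tfh clusters together in 7.01%, and all 5 Tfr markers examined were higher in Tfr in 10 of 10 mice. Among the Tfh markers examined, Il21 (6.09% of Tfr and 21.3% of Tfh cells) and Cd40lg (18.2% and 46.6%) were higher in Tfr in 0 of 10 mice. Icos went the other way (70.7% and 61.0%, higher in Tfr in 10 of 10 mice). Bcl6 (9.61% and 11.7%), Cxcr5 (38.4% and 42.6%) and Pdcd1 (74.3% and 76.3%) differed little between Tfr and Tfh. The B cell and myeloid markers Cd79a, Ms4a1, Lyz2 and Csf1r, the NKT and MAIT factor Zbtb16 and the NK receptor gene Klrd1, were each detected in fewer than 1% of cells in both. The NK receptor gene Klrb1c was detected in 5.34% of Tfr and 2.67% of Tfh cells and the CD8 chain gene Cd8b1 in 5.77% and 3.75%, each higher in Tfr in 10 of 10 mice, and their part in the Tfr comparisons was not tested.

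All 91 TRAV names of the full table were found in the GENCODE annotation of GRCm38, on the + strand of chromosome 14, between positions 52427928 and 53876752. Of these names, 45 have no suffix, 33 carry a D and 13 an N; names without a suffix took 54.8% ± 3.94 (SD, n = 10 mice) of clonotypes, D names 31.9% ± 4.15 and N names 13.3% ± 1.23. V exons were compared over a body, from 240 to 20 bases before the 3′ end, less a few bases at each side. The last bases were left out because trimming at the junction can remove them, and bases before the body were not compared. For 27 names the body was that of another annotated TRAV gene, called an identical copy below. Such a name was carried by 35.6% of clonotypes. TRAV4D-4 (same body as TRAV4N-4) and TRAV7D-2 (same body as TRAV7-2) are among them, so their copy, and with it their place in the locus, is uncertain. In 96.7% of cells the listed TCR sequence held the exact V exon body of an annotated gene, and in 99.9% of those it was the body of the gene named. Other copies differ enough to be told apart. The V exons of the 3 pairs of copies on which later comparisons turn are given here in GRCm38 coordinates, with capitals at the bases that differ within a pair.
TRAV4-4-DV10, chr14:53683899-53684177, + strand: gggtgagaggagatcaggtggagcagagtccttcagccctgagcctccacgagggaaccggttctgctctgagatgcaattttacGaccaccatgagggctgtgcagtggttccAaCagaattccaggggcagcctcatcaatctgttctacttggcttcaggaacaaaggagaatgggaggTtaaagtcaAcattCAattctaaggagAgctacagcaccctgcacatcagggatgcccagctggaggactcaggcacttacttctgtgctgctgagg
TRAV4D-4, chr14:52991111-52991389, + strand: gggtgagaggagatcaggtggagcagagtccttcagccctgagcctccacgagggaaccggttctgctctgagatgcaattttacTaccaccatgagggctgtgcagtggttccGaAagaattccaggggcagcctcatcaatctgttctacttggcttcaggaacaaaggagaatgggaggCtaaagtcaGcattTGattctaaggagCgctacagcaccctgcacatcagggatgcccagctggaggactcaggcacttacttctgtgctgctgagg
TRAV6-5, chr14:53491334-53491622, + strand: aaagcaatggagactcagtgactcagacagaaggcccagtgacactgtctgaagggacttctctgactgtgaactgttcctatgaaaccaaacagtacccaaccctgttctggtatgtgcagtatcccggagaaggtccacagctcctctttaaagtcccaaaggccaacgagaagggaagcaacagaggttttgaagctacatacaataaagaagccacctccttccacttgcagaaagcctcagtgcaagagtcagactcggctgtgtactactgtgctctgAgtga
TRAV6N-5, chr14:53105056-53105344, + strand: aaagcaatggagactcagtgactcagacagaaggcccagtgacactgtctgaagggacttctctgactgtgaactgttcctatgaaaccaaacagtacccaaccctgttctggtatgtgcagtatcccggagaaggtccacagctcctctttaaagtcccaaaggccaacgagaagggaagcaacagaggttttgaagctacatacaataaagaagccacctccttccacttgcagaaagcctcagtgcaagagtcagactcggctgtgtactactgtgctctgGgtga
TRAV6-7-DV9, chr14:53710128-53710419, + strand: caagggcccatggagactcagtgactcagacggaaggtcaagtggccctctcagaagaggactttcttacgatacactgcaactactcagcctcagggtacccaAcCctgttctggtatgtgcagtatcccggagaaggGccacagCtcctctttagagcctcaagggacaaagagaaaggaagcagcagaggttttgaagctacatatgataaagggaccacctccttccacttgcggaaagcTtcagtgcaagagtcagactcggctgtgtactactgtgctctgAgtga
TRAV6N-7, chr14:53318993-53319284, + strand: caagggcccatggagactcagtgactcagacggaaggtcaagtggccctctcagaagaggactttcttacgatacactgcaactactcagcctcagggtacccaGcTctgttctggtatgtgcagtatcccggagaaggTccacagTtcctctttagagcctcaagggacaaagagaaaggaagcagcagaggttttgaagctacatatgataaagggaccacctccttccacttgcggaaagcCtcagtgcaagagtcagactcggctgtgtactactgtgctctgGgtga
TRAV4-4-DV10 and TRAV4D-4 differed at 8 of 279 bases (97.1% identity), spread over the exon. TRAV6-7-DV9 and TRAV6N-7 differed at 6 of 292. TRAV6-5 and TRAV6N-5 differed at 1 of 289, and that base lies in the part that trimming can remove.

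TRAV usage was uneven across families, and TRAV6 or TRAV7 was the most used family in every mouse. TRAV6 had the highest mean, 18.8% ± 7.88 of clonotypes (SD, n = 10 mice), and TRAV7 had 15.6% ± 2.85. Their order rested on 564Igi mouse 17: without it TRAV6 averaged 16.3% ± 1.70 and TRAV7 16.4% ± 1.31, and TRAV7 was above TRAV6 in 5 of the 10 mice. TRAV4 followed with 10.8% ± 1.71 and TRAV14 with 10.6% ± 2.20. TRAV13 (8.13%), TRAV12 (7.91%) and TRAV9 (5.90%) came next. TRAV8, TRAV16, TRAV3, TRAV5, TRAV10 and TRAV21 held between 2.09% and 3.85% each, TRAV19, TRAV17, TRAV1, TRAV2, TRAV15 and TRAV11 less than 1% each, and TRAV18 was seen in a single clonotype. Neighbours in this order, such as TRAV4 and TRAV14 or TRAV13 and TRAV12, differed by less than the SD between mice. Most families varied between mice more than sampling of clonotypes alone would give: the SD was 2.79 times the counting SD for TRAV9, 2.52 times for TRAV14 and 2.38 times for TRAV8, but 0.797 times for TRAV17. The counting SD takes each clonotype as a separate draw, although 1 TRAV14-2 chain of 564Igi mouse 21 was listed with 33 clonotypes. The part of such repeats in the spread was not tested. The 5 most used names were TRAV4D-4 (4.51% ± 1.10), TRAV6-7-DV9 (4.34% ± 3.79), TRAV7D-2 (4.22% ± 1.304), TRAV6-6 (4.13% ± 0.857) and TRAV6N-7 (3.30% ± 1.26), a set in which the SD of TRAV6-7-DV9 stands out.

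**Figure D1:**
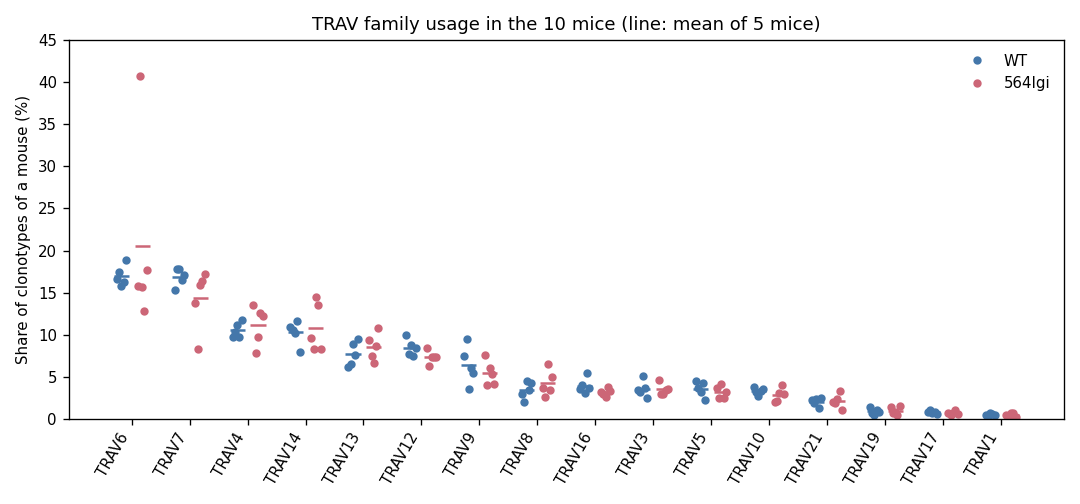
Share of clonotypes of each mouse (y axis, %) for the 16 TRAV families with enough clonotypes to test, with 1 point per mouse, WT in blue and 564Igi in red, and a line at the mean of 5 mice. The groups overlap in every family, and 1 point, 564Igi mouse 17 at 40.7% for TRAV6, lies far above the rest.

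To ask whether autoimmune and immunized chimeras differed in TRAV usage, log2 shares were compared with limma across all V names, α and β, that had at least 50 clonotypes. No TRAV name passed: 0 of 70 at adjusted p below 0.05 (limma), beside 0% of the 92 V names tested; 4 had an unadjusted p below 0.05, and edgeR called 0 with 7 unadjusted. No family of 16 passed either, with 0 at unadjusted p below 0.05 by limma and 0 by edgeR. Counting cells in place of clonotypes gave 0 of 74 names (2 unadjusted; edgeR 0 and 5) and 0 of 17 families (0 unadjusted; edgeR 0 and 0), beside 0% of V names and V families. The median SE of a log2 difference was 0.33 over names by clonotypes and 0.58 by cells. Differences of this order could not be resolved, and larger ones did not pass either. The largest over names was 0.93 in size by clonotypes and 2.05 by cells, so 0 calls do not show that usage was the same.

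The 3 names with the lowest p had negative log2 differences (564Igi minus WT), without passing the adjusted threshold. TRAV14-1 took 1.59, 2.23, 1.53, 2.23 and 0.809% of clonotypes in WT mice 11, 12, 14, 23 and 36, and 0.723, 1.29, 0.846, 0.615 and 0.843% in 564Igi mice 13, 17, 21, 24 and 34. The groups overlapped through WT mouse 36, and the log2 difference was -0.87 ± 0.30 (SE), with adjusted p = 0.480 by limma. TRAV7N-6 differed by -0.90 ± 0.33 (adjusted p = 0.480) and TRAV7D-2 by -0.63 ± 0.25 (adjusted p = 0.600). As listed, TRAV6-5 was the only one of the 70 names whose groups did not overlap, a feature chosen after the values were seen: 0.893 to 1.29% in WT and 1.35 to 3.22% in 564Igi, with an exact two-sided permutation p of 0.00794, the smallest that the possible assignments of 10 mice to groups allow, and 0.556 after adjustment. Its V exon body is that of TRAV6N-5, and with both names counted as 1 the groups overlapped, at 1.35 to 1.86% in WT and 1.60 to 4.58% in 564Igi (log2 difference 0.46 ± 0.28, limma adjusted p = 0.646).

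For families, the intervals show how large a difference these mice leave possible. TRAV16, TRAV7 and TRAV8 had the lowest p, with log2 differences of -0.29, -0.28 and 0.29 and adjusted p from 0.791 to 0.816. The 95% interval ran from -0.71 to 0.14 for TRAV7, from -0.33 to 0.46 for TRAV4 and from -0.34 to 0.62 for TRAV6.

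TRAV6 in 564Igi mouse 17 stood apart from all other values, and this mouse and family are described because of that, with no test. Of its 1398 clonotypes, 569 carried TRAV6, which is 40.7% (95% Wilson interval 38.2 to 43.3), against 12.8 to 18.9% (median 16.2) in the other 9 mice. By cells the share was 32.5%, against 9.62 to 17.4% in the others. Without this mouse the 564Igi mean fell to 15.5% ± 2.03 (SD, n = 4), beside 16.98% ± 1.21 in WT (n = 5).

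The excess was spread over many TRAV6 names rather than 1 gene. Of the 14 TRAV6 names, 8 were above the range of the other mice, among them TRAV6-7-DV9 (14.9%, others 2.09 to 4.31%), TRAV6N-7 (6.29%, others 1.48 to 4.13%), TRAV6-3 (4.08%, others 0.0957 to 0.937%), TRAV6-5 (3.22%) and TRAV6-4 (2.72%). TRAV6-6, the most used TRAV6 name elsewhere, was at 3.29%, just under the range of the others (3.35 to 6.20%). With TRAV6 left out, most of the 19 remaining families of mouse 17 lay within the range of the other mice. Outside it were TRAV7 (13.99%, others 16.3 to 21.6%), TRAV1 and TRAV18.

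These TRAV6 chains were often listed with 1 β name. In mouse 17, 50.6% of TRAV6 clonotypes (46.5 to 54.7) carried a β chain listed under the joint name TRBV12-2+TRBV13-2, against 12.1% of its clonotypes of other families (10.0 to 14.5) and 6.35 to 12.7% of TRAV6 clonotypes in the other 9 mice. What the joint name stands for is not given in the sources used here, so it cannot be read as pairing with either TRBV gene alone, and the reads of this library were not examined. TRAJ42 was used by 13.01% of them, against 2.55 to 5.71% in the other mice, and TRAJ21 by 11.2%. The most frequent combination was TRAV6-7-DV9 with TRAJ42 and this β name (47 clonotypes), followed by TRAV6-4 with TRAJ21 and the same β name (25 clonotypes).

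**Figure D2:**
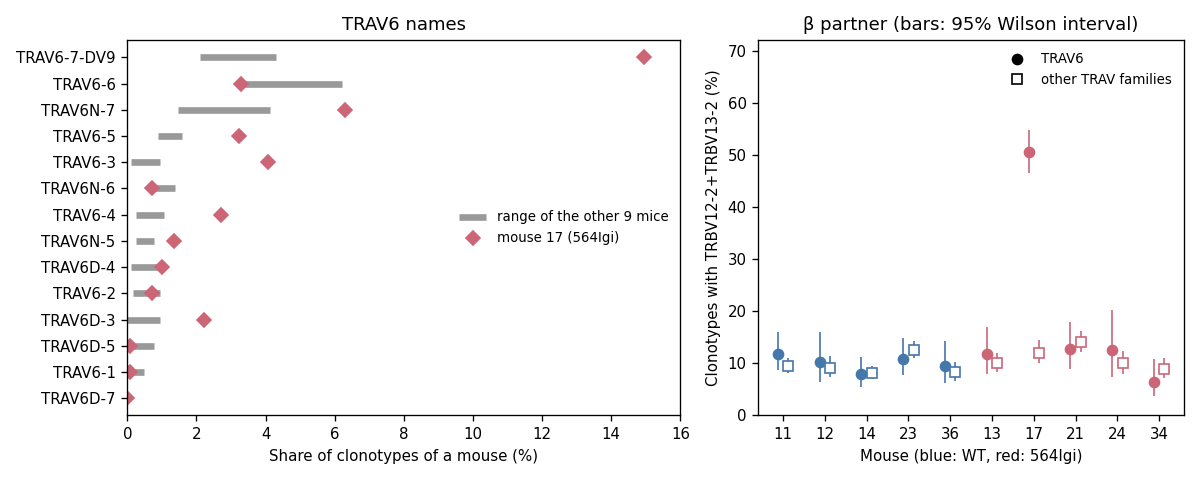
Left, share of clonotypes (x axis, %) for each TRAV6 name in 564Igi mouse 17 (diamonds) and the range of the other 9 mice (bars). Right, percentage of clonotypes with the β name TRBV12-2+TRBV13-2 in each mouse, for TRAV6 (filled circles) and all other families (open squares), with 95% Wilson intervals; TRAV6 in mouse 17 is at 50.6% and every other value lies between 6.35 and 14.04%.

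The clonotypes were many and mostly small, not 1 expanded clone. The 508 of them with a readable CDR3α held 358 different CDR3α nucleotide sequences and 482 different CDR3β, 71.2% were seen in a single cell, and the largest had 102 cells. Counting each α sequence once per mouse lowered TRAV6 to 35.5% of mouse 17. The 4 α sequences that recurred with most β partners in this mouse are printed, with capitals at bases that match neither the V nor the J segment.
TRAV6-7-DV9 with TRAJ42, in 18 clonotypes: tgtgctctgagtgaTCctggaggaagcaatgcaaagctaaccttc
TRAV6-7-DV9 with TRAJ42, in 15 clonotypes: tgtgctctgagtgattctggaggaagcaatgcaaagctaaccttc
TRAV6N-7 with TRAJ32, in 7 clonotypes: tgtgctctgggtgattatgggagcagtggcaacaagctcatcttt
TRAV6-7-DV9 with TRAJ58, in 6 clonotypes: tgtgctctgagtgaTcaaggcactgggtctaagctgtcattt
At most 2 bases of each were of neither segment. These 4 were picked for recurring, so they do not stand for all TRAV6 chains of mouse 17.

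TRAV6 clonotypes of mouse 17 were also placed differently among the subsets. With a clonotype counted once in each subset that held it, 28.8% of its TRAV6 clonotypes (24.7 to 33.3) were in Tfr, against 45.7% of its other clonotypes (41.7 to 49.7). In the other mice 37.5 to 56.7% of TRAV6 clonotypes were in Tfr. TRAV6 took 48.6% of the Tfh clonotypes of mouse 17 and 31.3% of its Tfr clonotypes, against 14.1 to 18.5% and 13.1 to 18.0% in the other mice. By cluster, TRAV6 held 50.1% of the activated Tfh clonotypes of mouse 17, but 24.7% in the Tfh cluster named Sostdc1, less than in its Tfr. Both were the highest of the 10 mice. In the central memory Tfh cluster it held 62.5%, the highest of 6 mice with at least 20 clonotypes there (mean 28.5% ± 18.9 SD, mouse 17 included). That cluster is small, with 485 clonotypes over all mice.

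Across all mice, no TRAV family and 2 TRAV names were called between Tfr and Tfh cells of the same mouse. Each subset was compared within the mouse, 10 pairs in all. Of 62 TRAV names tested, 2 were called by limma, a share below the 4.82% called among the 83 V names, α and β. Of the 2, 1 was higher and 1 lower in Tfr. In all, 8 TRAV names had an unadjusted p below 0.05, and edgeR called 2. The median log2 difference was 0.05 over TRAV names and 0.01 over all V names.

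TRAV4-4-DV10 was higher in Tfr. Its share was 1.41% at the lowest, 2.27% at the median and 5.23% at the highest in Tfh, and 2.52, 3.81 and 6.08% in Tfr. The subsets overlapped across mice, but Tfr was higher within 9 of 10 mice, and the log2 difference was 0.65 ± 0.17 (SE; limma adjusted p = 0.00499; exact sign-flip p = 0.00586, 0.182 after adjustment). The largest rise was in 564Igi mouse 17, from 1.60 to 5.34%, while WT mouse 23 (2.80 and 2.76%) and 564Igi mouse 13 (5.23 and 5.25%) were level. Shares of a subset are parts of 1 total. In mouse 17, TRAV6 took 48.6% of Tfh but 31.3% of Tfr clonotypes, which leaves a larger share to the other names in Tfr. The part of this in the rise of TRAV4-4-DV10 was not tested.

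TRAV6-5 was lower in Tfr. It took 0.971% at the lowest, 1.77% at the median and 4.32% at the highest of Tfh clonotypes, and 0, 0.891 and 2.80% of Tfr clonotypes. It was lower in Tfr in 9 of 10 mice, with a log2 difference of -0.99 ± 0.28 (limma adjusted p = 0.0124; exact sign-flip p = 0.00391, 0.182 after adjustment), and counted together with its copy TRAV6N-5 the difference was -0.71 (adjusted p = 0.0466). Without mouse 17 neither name passed (adjusted p = 0.0665 for both, log2 differences 0.53 and -1.04), and without 564Igi mouse 21, which had no TRAV6-5 in Tfr, TRAV6-5 was at -0.66 (adjusted p = 0.190). Neither passed by share of cells either (adjusted p = 0.407 and 0.292).

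**Figure D3:**
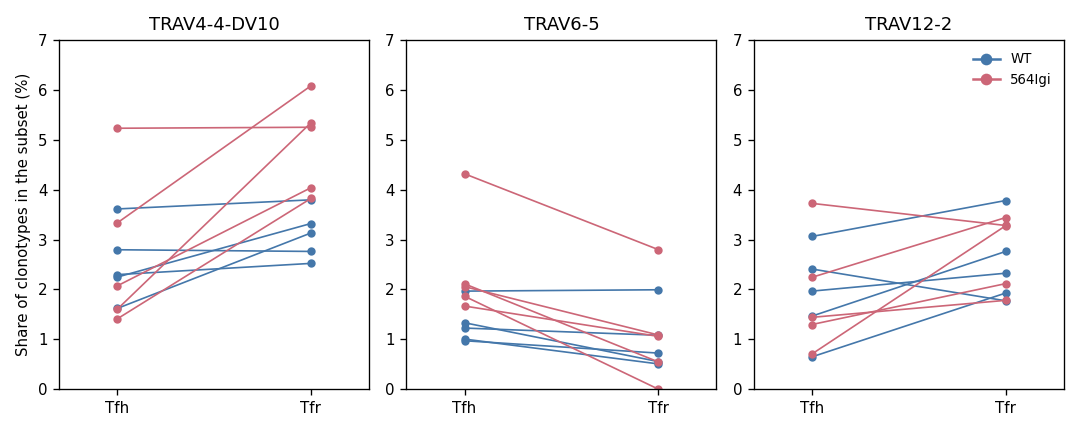
Share of clonotypes in the subset (y axis, %) in Tfh and Tfr cells for TRAV4-4-DV10, TRAV6-5 and TRAV12-2, with 1 line per mouse, WT in blue and 564Igi in red. TRAV4-4-DV10 lies higher in Tfr in 9 of 10 mice and TRAV6-5 lower in 9 of 10; TRAV12-2 is higher in 8 of 10 and did not pass.

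The families that hold these names moved less. No family of 15 passed by limma, beside 3.03% of 33 V families, with 3 at an unadjusted p below 0.05 and, by edgeR, 0 called and 2 unadjusted. TRAV16 had 3.29% ± 1.42 of Tfh and 4.22% ± 0.803 of Tfr clonotypes (log2 difference 0.44 ± 0.16), TRAV3 2.96% ± 0.893 and 3.89% ± 0.873 (0.41 ± 0.17), and TRAV4 10.2% ± 2.86 and 11.8% ± 1.997 (0.25 ± 0.11), all with adjusted p = 0.103. Tfr was higher for TRAV16 in 8, for TRAV3 in 9 and for TRAV4 in 7 of 10 mice. Against activated Tfh cells alone, TRAV16 (0.72, adjusted p = 0.00459) and TRAV3 (0.60, adjusted p = 0.0292) passed. TRAV6 was at -0.05 ± 0.08, higher in Tfr in 4 of 10 mice.

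Whether the Tfr to Tfh difference itself differed between 564Igi and WT chimeras was tested across the 10 within-mouse differences. No name of 62 and no family of 15 passed (limma, beside 0% of V names and 0% of V families; 3 names and 1 family unadjusted; edgeR 0 of both, with 2 names and 1 family unadjusted). The lowest p was that of the TRAV16 gene, whose Tfr minus Tfh log2 difference was 0.20, 1.81, 1.02, 2.22 and 1.14 in 564Igi mice 13, 17, 21, 24 and 34, and -1.12, -1.05, -0.29, -0.15 and 0.17 in WT mice 11, 12, 14, 23 and 36. In this gene, picked for its lowest p, the groups did not overlap, but only narrowly (0.17 in WT mouse 36, 0.20 in 564Igi mouse 13). How many other names separate in this way was not counted. The value of mouse 17 also carries the limit given above for its TRAV6 share. The difference between the groups was 1.76 ± 0.57 (limma adjusted p = 0.156). For TRAV4-4-DV10 the difference was 0.65 ± 0.34 and for TRAV6-5 -1.001 ± 0.525, both with adjusted p = 0.716.

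Clone size was the next axis. Clonotypes of 2 or more cells made up 17.8 to 32.8% of a mouse's clonotypes, and their TRAV usage was compared with that of single-cell clonotypes of the same mouse. No name of 70 passed by limma, beside 1.09% of the 92 V names, with 9 at an unadjusted p below 0.05 and, by edgeR, 0 called and 2 unadjusted. TRAV12-2 was at 1.62% ± 0.974 of expanded and 2.37% ± 0.7101 of single-cell clonotypes (log2 difference -0.61 ± 0.22, adjusted p = 0.227), TRAV3D-3 at -0.47 ± 0.19 and TRAV6-3 at 0.85 ± 0.35 (both adjusted p = 0.305). No family of 16 passed, beside 0% of V families, with 3 unadjusted and, by edgeR, 0 called and 2 unadjusted; TRAV8 was higher among expanded clonotypes in 9 of 10 mice (0.29 ± 0.13, adjusted p = 0.297) and TRAV3 lower in 8 of 10 (-0.41 ± 0.16, adjusted p = 0.166).

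The very largest clones were a different matter, given here as a description because few clones decide it. TRAV4 clonotypes averaged 2.91 cells against 2.20 over all families, while its share of expanded clonotypes, 11.4% ± 1.88, lay within the spread between mice of its share of single-cell clonotypes, 10.6% ± 1.94 (log2 difference 0.11 ± 0.09, higher in 7 of 10 mice, limma adjusted p = 0.553). Of 37 clonotypes over 50 cells, 13 were TRAV4, and of 11 over 100 cells, 5 were. TRAV4 accordingly took 25.8% of the cells of WT mouse 12 but 10.3% of its clonotypes, and 20.9% of the cells of 564Igi mouse 24 but 12.5% of its clonotypes.

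Single large clones sat mostly in 1 subset. The largest, in 564Igi mouse 17, joined TRAV4-3 to TRAJ7 and TRBV10 and had 244 cells, 139 of 179 matched cells being Tfr. A clone of TRAV8-1 with TRAJ31 and TRBV10 in WT mouse 23 had 226 cells, of which 12 of 148 matched were Tfr. Their CDR3α sequences are printed since they carry long stretches of neither V nor J sequence (capitals).
TRAV4-3 with TRAJ7, 564Igi mouse 17: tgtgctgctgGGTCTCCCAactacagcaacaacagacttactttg
TRAV8-1 with TRAJ31, WT mouse 23: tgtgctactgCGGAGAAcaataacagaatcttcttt

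TRAV4D-4 with TRAJ22 was the most frequent of 2497 V and J combinations, and it was found in every mouse, in 9 of them with a β chain of the same name. This combination was picked out after its values were seen, so no test is given. It was found in 100 clonotypes and 689 cells in 10 mice, and 30 of these clonotypes were in WT mouse 14. The next combination, TRAV4D-4 with TRAJ12, had 86 clonotypes, and how far the order rests on mouse 14 was not tested. A CDR3α of 42 bases was carried by 61 of the 100, with 560 cells. These 61 held 35 different CDR3α, and the 20 of them in mouse 14 held 9. Of the 61, 16 (26.2%) carried TRBV13-1, against 6.55% of all other clonotypes, and 15 of those 16 had a CDR3β of 45 bases, against 25.9% of other TRBV13-1 clonotypes. The 16 came from 9 mice of both groups.

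The largest clone with TRBV13-1 in each of 4 mice shows the shared α junction. Capitals mark the bases of neither V nor J.
WT mouse 12, CDR3α: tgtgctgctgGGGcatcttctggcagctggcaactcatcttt
564Igi mouse 24, CDR3α: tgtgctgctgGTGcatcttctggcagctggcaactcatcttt
564Igi mouse 21, CDR3α: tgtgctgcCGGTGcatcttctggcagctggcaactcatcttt
WT mouse 36, CDR3α: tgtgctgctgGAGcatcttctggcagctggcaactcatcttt
The CDR3β of the same receptors, and of those of 2 further mice, are aligned by length, with capitals at bases that differ from the first.
WT mouse 12, CDR3β: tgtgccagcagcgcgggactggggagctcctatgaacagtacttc
564Igi mouse 24, CDR3β: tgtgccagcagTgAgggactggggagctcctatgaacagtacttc
564Igi mouse 21, CDR3β: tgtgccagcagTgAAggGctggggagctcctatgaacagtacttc
WT mouse 36, CDR3β: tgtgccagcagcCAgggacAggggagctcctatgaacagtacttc
WT mouse 14, CDR3β: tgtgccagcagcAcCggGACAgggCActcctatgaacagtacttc
WT mouse 11, CDR3β: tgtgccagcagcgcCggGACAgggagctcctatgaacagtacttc
The α sequences with GGG and with GTG in the middle were each found in 5 mice. No β sequence printed was identical to another, and they differed from that of mouse 12 at 2 to 8 of 45 bases.

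Its cell numbers were set by a few mice. Cells with TRAV4D-4, TRAJ22 and a 42-base CDR3α made up 9.08% of cells in WT mouse 12 and 8.48% in 564Igi mouse 24, 2.88% in WT mouse 36, and between 0.118 and 0.815% in the other 7 mice. Of the 267 that matched an expression cell, 185 were activated Tfh and 53 Tfr. The amino acid pair of the clone of 131 cells in 564Igi mouse 24 was also found in 25 cells of 564Igi mouse 21, with other nucleotides in both chains.

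**Figure D4:**
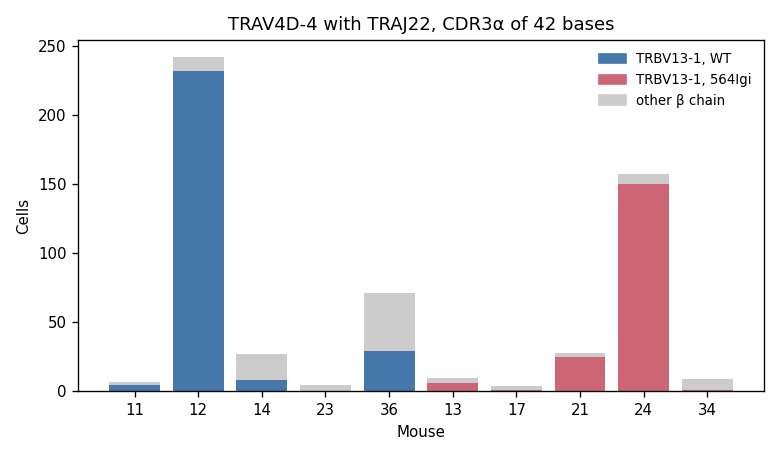
Cells per mouse (y axis) with TRAV4D-4, TRAJ22 and a CDR3α of 42 bases, split into those with TRBV13-1 (blue in WT, red in 564Igi) and those with another β name (grey). WT mouse 12 (242 cells) and 564Igi mouse 24 (157 cells) hold most of them, and each mouse has at least 4.

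Few α chains recurred in many mice. Of 10342 different CDR3α nucleotide sequences with their TRAV name, 309 were found in more than 1 mouse, 4 in 5 mice and none in more than 5. Beside the TRAV4D-4 chains with GGG and GTG, the 4 were a TRAV4D-4 chain with TRAJ12 and a TRAV19 chain with TRAJ57. TRAV4 had the highest share of such sequences (6.04%), followed by TRAV21 (5.64%) and TRAV16 (4.39%), and TRAV10 the lowest (0.570%) among families with over 50 clonotypes. Whole pairs were rarer: 24 amino acid pairs, 6 of them TRAV4 and 5 TRAV6, were seen in more than 1 mouse. One was a TRAV6-3, TRAJ30 and TRBV19 pair with 102 cells in 564Igi mouse 17, 29 in WT mouse 23 and 3 in 564Igi mouse 24, and its matched cells were Tfr in 78 of 83, 19 of 19 and 3 of 3.
TRAV6-3 with TRAJ30: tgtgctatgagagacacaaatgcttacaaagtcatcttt
This α chain, the same in all 3 mice, held no base of neither segment.

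Within a mouse, an α chain could be listed with several β chains. Different α sequences numbered 59.8 per 100 clonotypes in WT mouse 14, 80.65 in 564Igi mouse 21 and 83.4 in 564Igi mouse 17, and 89.1 to 96.0 in the other 7. In mouse 14 β chains repeated too. Its 1550 clonotypes outside TRAV6 with a readable CDR3α held 883 different CDR3α and 924 different CDR3β. The same counts were 985, 780 and 821 in mouse 21, and 1419, 1281 and 1287 in WT mouse 11. What lies behind the repeats was not tested, so how many clonotypes of mouse 14 are distinct receptors cannot be told. One TRAV14-2 chain of mouse 21 was listed with 33 clonotypes. Counting each α sequence once per mouse left 0 TRAV names called between 564Igi and WT.

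CDR3α length differed between families. The mean over 10 mice was 40.8 bases ± 0.164 (SD), 40.8 in WT and 40.9 in 564Igi. TRAV8 chains averaged 39.0 ± 0.571 and TRAV13 chains 39.0 ± 0.369, while TRAV16 chains averaged 44.5 ± 0.573 and TRAV21 chains 44.0 ± 1.05 (9 mice). The lowest mouse for TRAV16 (43.7) was above the highest for TRAV8 (39.96), and TRAV6, at 41.6 ± 0.391, lay between.

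The position of a TRAV gene went along with the TRAJ it used. Over 49 names with a single position and at least 50 different α chains, the distance of the gene from the first TRAJ segment and the mean position of its TRAJ partners had a Spearman rho of 0.860, and 0.717 to 0.879 in each mouse. This is a description across genes, which share mice and libraries. TRAV21-DV12, 278 kb from the array, joined on average 10.8 kb into it; the nearest 5 names averaged 14.5 kb and the farthest 5 averaged 37.3 kb of the 63.8 kb that the TRAJ segments span.

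The relation was not a straight line. Steps of 250 kb were taken over all names with at least 50 different α chains, also those with an identical copy elsewhere. The mean rose from 18.7 kb (12 names, 250 to 500 kb away) to 30.9 kb (20 names, 17 with a single position, up to 750 kb). It was 37.9 kb for 7 names up to 1000 kb (6 with a single position) and 39.9 kb for 15 names up to 1250 kb (6 with a single position). It then stood at 34.8 kb for 11 names between 1250 and 1500 kb, 10 of them D names, and 4 of the 11 have an identical copy elsewhere. Among these names, those with a single position lay between 37.2 and 41.3 kb from 1000 to 1250 kb. From 1250 to 1500 kb they lay between 30.7 and 38.1 kb. TRAV5-1, the farthest, was at 43.7 kb.

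**Figure D5:**
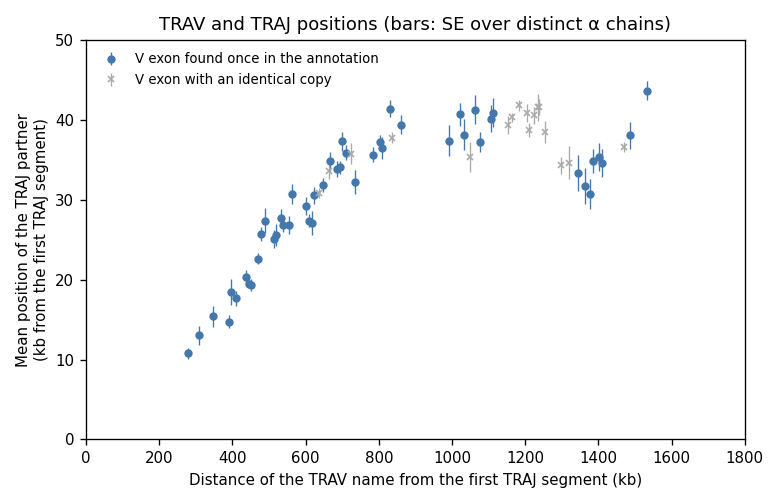
Mean position of the TRAJ partners (y axis, kb from the first TRAJ segment) against the distance of each TRAV name from that segment (x axis, kb), with SE over different α chains. Blue circles have a V exon body found once in the annotation and grey crosses have an identical copy of that body. The points climb from 10.8 kb at 278 kb and dip between 1250 and 1500 kb.

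The α chains that define invariant T cells were nearly absent. TRAV11 joined to TRAJ18 marks invariant NKT cells, and TRAV1 joined to TRAJ33 marks MAIT cells. TRAV11 was listed in 27 cells of 8 mice with 12 different TRAJ, and 1 cell of 30010 (0.00333%, exact 95% interval 8.44e-05 to 0.0186%) had TRAJ18; its CDR3α is printed with capitals at bases of neither segment, 7 in number.
TRAV11 with TRAJ18, 564Igi mouse 24: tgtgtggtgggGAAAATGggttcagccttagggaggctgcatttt
TRAV1 was listed in 103 cells of 10 mice, none with TRAJ33; a count of 0, taken as fewer than 3 counts, allows a share of up to 0.009997% of the 30010 cells, and the exact two-sided 95% interval reaches 0.0123%. These limits and intervals cover counting error only.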

How the data were processed

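TCR and expression libraries of spleen CD4+CXCR5+PD1+ cells from 10 chimeras were made with the 10x Genomics 5′ kit. The authors aligned both with Cell Ranger 4.0.0 to GRCm38, kept cells with productive α and β chains, and clustered expression with Seurat 3.1.4; the deposited TCR table lists names and CDR3 sequences per cell, at most 2 different values per field, and the deposited cluster table names each cell's cluster. The expression matrix the authors deposited holds the natural log of sctransform-corrected UMI counts plus 1, normalized in each condition separately, and was used only for markers, called detected above 0. The TCR values are cell counts made from the deposited table. Here the values computed are shares of clonotypes or cells per mouse, log2((k + 0.5)/(N + 1) × 100), with k the number carrying a name and N the total; names with fewer than 50 clonotypes in the comparison were left out. limma 3.58.1 with trend (R 4.3.3) was fitted over all V names, α and β, with Benjamini-Hochberg adjustment, and the mouse as a block for Tfr against Tfh and for clone size, where both values come from the same animal. Exact two-sided permutation (252 assignments) and sign-flip (1024 patterns) tests over mice stood beside it, with edgeR 4.0.16 as an alternative. Names were checked against GENCODE vM21. Intervals are 95% Wilson intervals, or exact where stated. The fits were tested on simulated data. Named TRAV genes were those called, otherwise the 3 with the lowest p, plus the 5 most used, TRAV11 and TRAV1. The members, lists and tests were chosen with earlier results of these data known.

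No doublet caller was run here; the study's methods set an upper limit on genes per cell for the expression table and name no doublet removal for the TCR table, so doublets may remain among the cells with 1 TRAV name. The libraries had 685 cell barcodes in common between mice, which were kept apart by library. Because the table keeps at most 2 different V names per cell, a cell with more than 1 TRAV name shows no β name; such cells were left out. Cells whose expression was filtered out have no cluster.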

Additional observations from a re-analysis of the deposited data

Results flagged for a closer look

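In 100 sets of 5 mice, 11 had a single mouse far from the other 4 by Dixon's criterion at 95%, where chance alone gives about 5. The sets are not independent, as families stand beside their own names and clonotype shares beside cell shares of the same mice. The count of 11 beside 5 is therefore no test of an excess. By share of clonotypes, 3 of the 11 belonged to 564Igi mouse 17: TRAV6 (40.7%, other 564Igi mice 12.8 to 17.7%), TRAV6-7-DV9 (14.9%, others 2.09 to 4.31%) and TRAV6-5 (3.22%, others 1.35 to 1.59%). The fourth was TRAV7D-2 in WT mouse 14 (6.27%, other WT mice 4.67 to 4.78%), the mouse with the fewest different α chains per clonotype.

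By share of cells, TRAV6-7-DV9 in mouse 17 (10.5%, others 1.67 to 4.10%) and TRAV4D-4 in WT mouse 12 (11.7%, others 4.37 to 6.08%) stood out, the latter beside the clone of 226 cells described above. In 564Igi mouse 13, TRAV9 (9.02%, others 3.92 to 4.66%), the TRAV16 family (4.29%, others 1.89 to 2.49%) and TRAV6-6 (5.15%, others 2.45 to 3.22%) were high. The TRAV16 family was also high in WT mouse 23 (6.85%, others 2.43 to 3.68%), and TRAV7D-2 in 564Igi mouse 34 (6.61%, others 2.81 to 3.19%). No cause of these values was tested.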

How the results depend on the processing

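Between 564Igi and WT, 0 TRAV names and families were called in every alternative, by clonotypes or cells, also without mice 34 and 36, the only mice whose library numbers lie apart, and with any 1 mouse left out (0 to 0). For Tfr against Tfh, the 2 names called became 0 by share of cells, 0 with limma without trend, 0 without the mouse as a block, 1 (TRAV4-4-DV10) when cells with several TRAV names were kept, and 4 without mice 34 and 36. Leaving out 1 mouse gave 0 to 3, with 0 without mouse 17. Families called there went from 0 to 2 against activated Tfh alone and to 1 by share of cells (TRAV16 in both), and ranged from 0 to 1 with 1 mouse left out.

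Between expanded and single-cell clonotypes, the 0 names called became 1 with each α sequence counted once (TRAV12-2), 4 with no filter, 41 with expansion set at over 10 cells and 28 with a pseudocount of 2; families became 1 with several TRAV names kept (TRAV8), 1 with no filter, 3 over 10 cells and 3 with a pseudocount of 2. All calls of the last 3 settings were higher in the expanded arm, which holds fewer clonotypes. A pseudocount weighs more where there are fewer clonotypes, in the main fit as well, and its part in any of these values was not tested. TRAV12-2 went from -0.61 to 0.47 over 10 cells, the only change of sign among 624 log2 differences; leaving out 1 mouse gave 0 calls throughout. The Tfr to Tfh difference between groups gained 1 name (TRAV16) with labelled sex as covariate and 1 with a pseudocount of 2, and 0 to 0 with 1 mouse left out. TRAV6 in mouse 17 moved to 35.5% with each α counted once. Counting names with the same V exon body as 1, or each α sequence once, was chosen after seeing the data. The shares rest on 813 to 2090 clonotypes per mouse and leave a median SE on log2 differences of 0.33 for names between 564Igi and WT, and of 0.58 by cells.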
